A study of Danio rerio with 2 samples.

Results

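The BMP and TGF-β ligands, receptors and Smads of the zebrafish embryo were examined in cells sorted by green fluorescence. Members were all genes with a transcript whose protein name in the deposited tables contains bone morphogenetic protein, transforming growth factor, TGF-beta, activin, smad or mothers against decapentaplegic, in any case of letters. The wording picked 62 of the 22017 genes with a read, and 53 of them had at least 10 reads over both libraries, the minimum used for every ratio below. By role they were 12 BMP ligands, 5 TGF-β ligands, 10 type I receptors, 8 type II receptors, 4 co-receptors or pseudoreceptors, 12 Smads, 2 latency proteins, 1 protease, 4 intracellular partners and 4 other matches of the wording. The wording also caught genes outside the pathway, such as tgfa, a ligand of the EGF receptor, and missed pathway genes with other names, which are given apart at the end.

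Dissociated Tg(fli1a:EGFP)y1 embryos at 22 to 24 hpf, which express EGFP under the fli1a promoter, were sorted into GFP+ cells, labelled endothelial, and GFP- cells, labelled non-endothelial. Each population gave 1 RNA-seq library of 4441335 reads for GFP+ cells and 4105672 reads for GFP- cells, uniquely mapped to Ensembl transcripts of the assembly Zv9. No mutation or treatment is named for either library, and both come from the same transgenic line. fli1a is also active in blood precursors and in part of the neural crest, which limits GFP as a mark of endothelium alone.

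Ligands of the TGF-β superfamily are secreted dimers that bring together type I and type II serine/threonine kinase receptors. The type II receptor phosphorylates the type I receptor, which then phosphorylates receptor-regulated Smads. These join Smad4 and enter the nucleus. Inhibitory Smads and the pseudoreceptor BAMBI dampen the pathway and are themselves often its targets. BMP signals pattern the early embryo, and BMP and TGF-β signals both act in vessel growth and in the contact between endothelium and mural cells.

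The sort was checked against marker genes. All 10 vascular markers with enough reads were over 2-fold higher in GFP+ cells (median log2 ratio 5.63), among them the VEGF receptor gene kdrl with 2640 reads in the GFP+ and 71 in the GFP- library. cdh5, which encodes VE-cadherin, had only 5 reads in the GFP+ and 0 in the GFP- library. The 6 red cell markers were also higher in GFP+ cells (summed level 47085 RPM in the GFP+ and 392 RPM in the GFP- library, where RPM is reads scaled to the library total), and hemoglobin took 6.60% of the GFP+ reads and 0.0554% of the GFP- reads. Of the markers of other tissues, 4 of 5 neural, 3 of 3 muscle, 3 of 3 epidermal, 2 of 2 neural crest and 2 of 2 notochord genes were over 2-fold lower in GFP+ cells. The summed levels of these 5 lists ran from 3.60 RPM (notochord) to 557 RPM (muscle) in the GFP+ library, and from 45.5 RPM (notochord) to 2038 RPM (muscle) in the GFP- library, and foxd3 of the neural crest was at 0 in GFP+ cells. The GFP+ library thus held RNA of vessel and red cell genes together, and the part of each cell type in the results below was not tested.

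The members together had 4058 reads in the GFP+ and 4776 in the GFP- library, which is 0.0914% of the GFP+ library and 0.116% of the GFP- library. The log2 ratio of the reads, GFP+ over GFP-, was taken after adding 0.5 reads to each and scaling to the library totals, and a member was called higher or lower past 2-fold, that is, with a log2 ratio above 1 or under -1. Since each population gave 1 library, no ratio has a replicate check and no test of the conditions was possible. In these bulk samples, fewer cells of a type and less RNA per cell cannot be told apart. By this rule 14 of the 53 members were higher in GFP+ cells (26.4%), against 16.2% of all 15252 genes with at least 10 reads. Lower were 10 (18.9%), against 17.6% of all genes. Some higher calls rest on few reads, such as bmp10 with 9 reads in the GFP+ and 1 in the GFP- library. A minimum of 50 reads left 34 members, 7 of them higher and 8 lower, so that higher members no longer outnumbered lower ones. No share of all genes was computed for that minimum. The median log2 ratio of the members was -0.11, the same as that of all genes, and the members ranged from -2.32 to 2.92.

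Each ratio carries a 95% exact Clopper-Pearson interval of the GFP+ share of the reads, which covers counting error only. This interval was clear of 0 for 12 of the 14 higher and all 10 lower members, but no share of all genes was computed for it. When a Fisher's exact test on the reads (adjusted p under 0.001 over all genes) was also required, 7 members stayed higher, against 9.99% of all genes, and 8 stayed lower, against 10.8%. That test speaks of this pair of libraries alone, not of the conditions. By the sign of the ratios alone the roles differed in direction, and no test compared the roles. All 7 type II receptors with enough reads had log2 ratios above 0. The intervals of acvr2ba, tgfbr2l and the ACVR2A gene ENSDARG00000011188 among them spanned 0. All 5 inhibitory Smads and BAMBI pseudoreceptors, a set put together across the roles above, had log2 ratios below 0. The BMP ligands, TGF-β ligands and type I receptors held members on both sides. Of all genes with at least 10 reads, 54.7% had log2 ratios below 0. The members lay on 20 chromosomes or scaffolds.

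**Figure D1:**
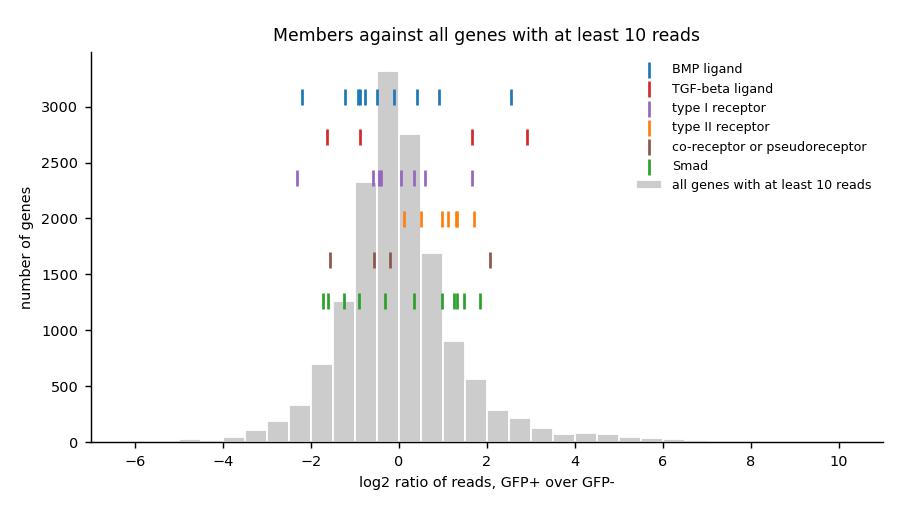
Histogram of the log2 ratio of reads in GFP+ cells over GFP- cells for all 15252 genes with at least 10 reads (grey bars, number of genes per bin). Vertical ticks mark single members in 6 role groups, with height used only to separate the groups. The type II receptors all lie right of 0, and the 5 other groups spread to both sides.

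The TGF-β ligands split into a pair on each side. tgfb1a (ENSDARG00000041502, Zv9 chromosome 15, 2771166 to 2795128), a TGF-β1 gene, had 207 reads in the GFP+ and 60 in the GFP- library (log2 ratio 1.66, interval 1.25 to 2.11). Its relative tgfb1b had 20 reads in the GFP+ and 2 in the GFP- library (log2 ratio 2.92, interval 1.17 to 6.35), the highest ratio of any member and one that rests on few reads. Both TGF-β1 genes were thus higher in GFP+ cells. The log2 ratios of the 2 copies differed by 1.26 (exact conditional interval -0.58 to 4.71, adjusted p = 0.272 by two-sided Fisher's exact test), so that their difference was not resolved at this depth.

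tgfb3 (ENSDARG00000019367, chromosome 17, 52587615 to 52620507) was lower in GFP+ cells, with 152 reads there and 439 reads in GFP- cells (log2 ratio -1.64, interval -1.92 to -1.37). tgfb2 had 235 reads in the GFP+ and 402 in the GFP- library, and its log2 ratio of -0.89 (interval -1.13 to -0.65) stayed within 2-fold. Per length, tgfb1a was the most abundant member but 1 in GFP+ cells, at 29.7 RPKM (reads scaled to the length of the most-read transcript and to the library total), against 9.31 RPKM in GFP- cells. tgfb3 ranked behind only bmpr1ba in GFP- cells, at 16.2 RPKM in the GFP+ and 51.3 RPKM in the GFP- library. The most abundant TGF-β ligand by length was therefore tgfb1a in GFP+ cells and tgfb3 in GFP- cells. tgfb5 had 1 read in the GFP+ and 2 in the GFP- library.

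Of the 10 BMP ligands with enough reads, 7 had log2 ratios below 0 (median -0.64), against 54.7% of all genes (median -0.11). Past 2-fold, 2 of the 10 were lower, against 17.6% of all genes, and 1 was higher, against 16.2%. The count of lower ligands was thus close to the share of all genes. bmp4, a ventralizing ligand of the gastrula, had 32 reads in the GFP+ and 70 in the GFP- library (log2 ratio -1.23, interval -1.89 to -0.62), and scaling to β-actin reads ended its call (log2 ratio -0.88). bmp2b, required for ventral fates in the early embryo, had 5 reads in the GFP+ and 23 in the GFP- library (log2 ratio -2.21, interval -4.07 to -0.89). These 2 ligands were the lowest of the group. bmp5 had 73 reads in the GFP+ and 128 in the GFP- library (log2 ratio -0.92). bmp7a, whose product pairs with Bmp2b in dorsoventral patterning, had 33 reads in the GFP+ and 57 in the GFP- library (log2 ratio -0.89). bmp6 had 29 reads in the GFP+ and 46 in the GFP- library (log2 ratio -0.77). The intervals of these 3 ligands were also below 0, although none passed 2-fold.

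bmp3 (ENSDARG00000060526), a BMP known in other vertebrates to oppose the osteogenic members, went the other way and was the BMP ligand with most reads. It had 195 reads in the GFP+ and 95 in the GFP- library (log2 ratio 0.92, interval 0.56 to 1.29), just within 2-fold, and its level of 27.4 RPKM in the GFP+ and 14.5 RPKM in the GFP- library placed it behind only tgfbr2b and tgfb1a among the members in GFP+ cells. bmp10, a cardiac ligand of endothelial receptors, had 9 reads in the GFP+ and 1 in the GFP- library (log2 ratio 2.55, interval 0.21 to 8.51). This was the only BMP ligand called higher, on 10 reads in all. bmp7b had 6 reads in each library, bmp8a had 6 reads in the GFP+ and 8 in the GFP- library, and the gene with a BMP16-like name had 6 reads in the GFP+ and 4 in the GFP- library. The intervals of these 3 genes spanned 0, so that no difference was detectable. bmp3b had 1 and bmp15 had 2 reads in GFP+ cells, and each had 4 reads in GFP- cells.

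**Figure D2:**
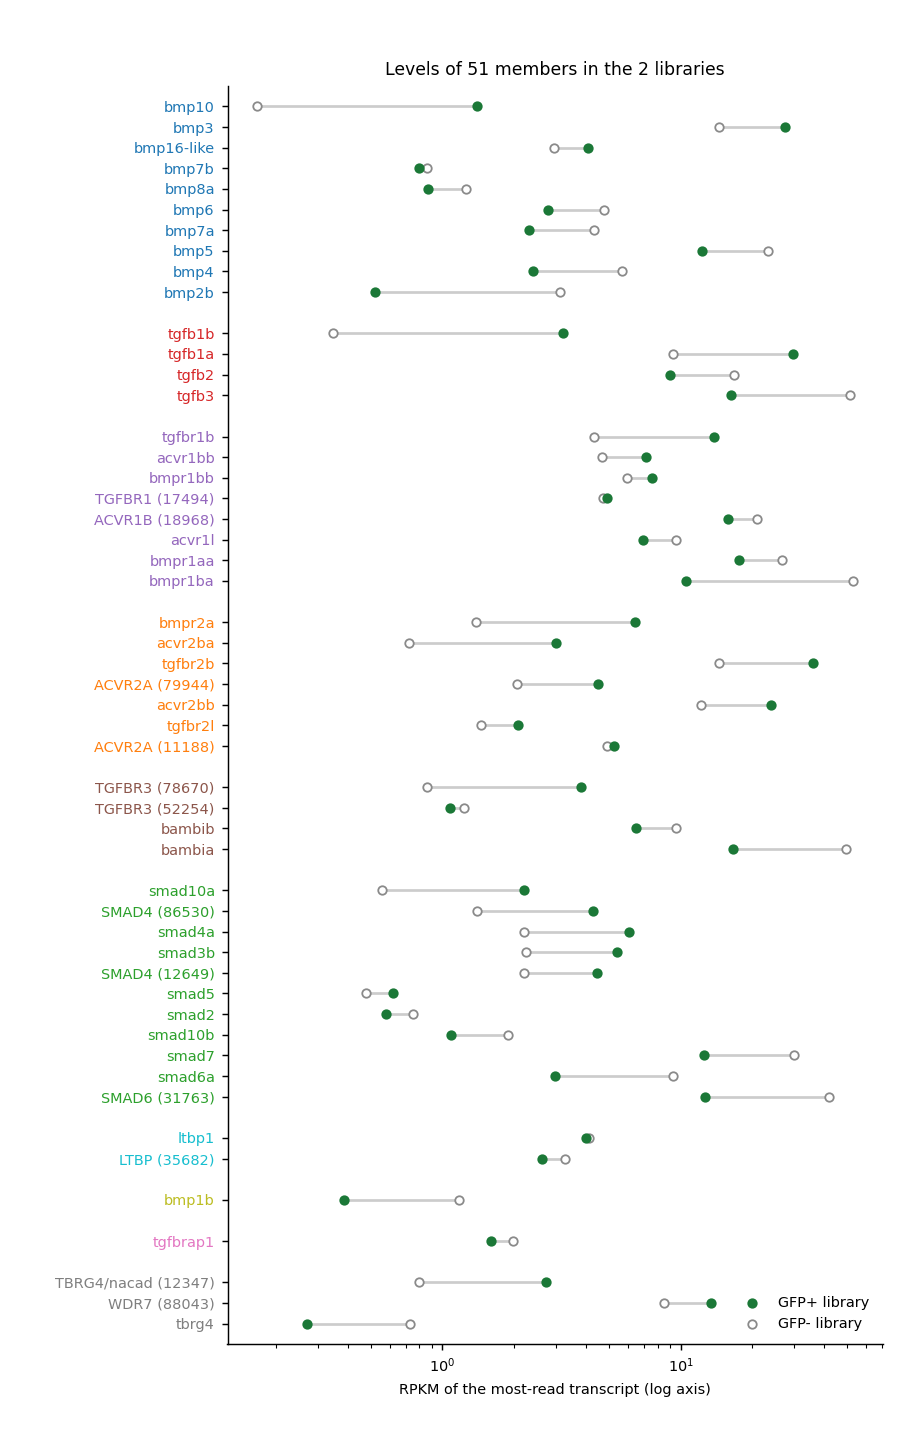
RPKM of the most-read transcript of 51 members with at least 10 reads, on a log axis, in GFP+ cells (filled green) and GFP- cells (open grey), 1 library each. Names are coloured and grouped by role, and digits in brackets are the end of the gene ID where the copy is not named. tgfbr2b and tgfb1a were highest in GFP+ cells, and bmpr1ba and tgfb3 were highest in GFP- cells.

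The type II receptors, which bind ligand and activate the type I partner, stood on 1 side. Together they had 885 reads (199 RPM) in the GFP+ and 404 reads (98.4 RPM) in the GFP- library, and 4 of the 7 with enough reads were past 2-fold higher and 0 lower, against 16.2% higher and 17.6% lower of all genes. Only tgfbr2b and bmpr2a, 2 of the 7, stayed called with the Fisher's exact test, with 5 reads added or with a minimum of 50 reads, and under each of the 4 other scalings acvr2bb made it 5. The median of the 7 log2 ratios was 1.11, against -0.11 over all genes. tgfbr2b (ENSDARG00000034541, chromosome 16, 42171681 to 42237350), a receptor for TGF-β, had 360 reads in the GFP+ and 134 in the GFP- library (log2 ratio 1.31, interval 1.02 to 1.61). At 36.0 RPKM in the GFP+ and 14.5 RPKM in the GFP- library it was the most abundant member in GFP+ cells and the tenth in GFP- cells.

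bmpr2a (ENSDARG00000011941, chromosome 6, 12709568 to 12763808), a type II receptor for BMPs, had 149 reads in the GFP+ and 42 in the GFP- library (log2 ratio 1.70, interval 1.21 to 2.24), the largest ratio of the group. Its reads fell on 2 transcripts. The 4414-base transcript had 126 reads in the GFP+ and 25 in the GFP- library (log2 ratio 2.20), and the 455-base transcript had 23 reads in the GFP+ and 17 in the GFP- library (log2 ratio 0.31). The 2 ratios differed by 1.89 on the log2 scale (interval 0.69 to 3.08, adjusted p = 0.00358 by two-sided Fisher's exact test over 18 pairs), and the higher reads in GFP+ cells were counted mainly on the long transcript. How reads shared by both transcripts were assigned is not given, so this contrast is uncertain. The paralog bmpr2b had 1 read in the GFP+ and 0 in the GFP- library, at or under the floor of 3 reads, which is 0.675 RPM in the GFP+ and 0.731 RPM in the GFP- library.

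The activin receptors of type II also had more reads in GFP+ cells. acvr2bb had 166 reads in the GFP+ and 78 in the GFP- library (log2 ratio 0.97, interval 0.58 to 1.38), just within 2-fold. An ACVR2A gene (ENSDARG00000079944) had 31 reads in the GFP+ and 13 in the GFP- library (log2 ratio 1.11, interval 0.16 to 2.20). acvr2ba had 9 reads in the GFP+ and 3 in the GFP- library (log2 ratio 1.33), and its interval of -0.53 to 3.99 spanned 0. Among these the second ACVR2A gene (ENSDARG00000011188) was nearest to equal, with 121 reads in the GFP+ and 103 in the GFP- library (log2 ratio 0.12, interval -0.27 to 0.51). The 2 ACVR2A genes differed by 0.99 on the log2 scale (interval -0.05 to 2.15, adjusted p = 0.0946 by Fisher's exact test), which missed 0.05. tgfbr2l, a gene like TGF-β receptor 2, had 48 reads in the GFP+ and 31 in the GFP- library (log2 ratio 0.51, interval -0.16 to 1.22).

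Type I receptors were divided. bmpr1ba (ENSDARG00000005600, chromosome 5, 8817825 to 8842843), a BMP receptor known in other vertebrates for its part in cartilage and limb, had the lowest ratio of any member. It had 89 reads in the GFP+ and 412 in the GFP- library (log2 ratio -2.32, interval -2.67 to -1.99). At 10.5 RPKM in the GFP+ and 52.8 RPKM in the GFP- library, it was the fourteenth most abundant member in GFP+ cells and the most abundant in GFP- cells. Its relative bmpr1bb had 36 reads in the GFP+ and 26 in the GFP- library (log2 ratio 0.35, interval -0.41 to 1.14). The 2 copies differed by 2.67 on the log2 scale (interval 1.83 to 3.54, adjusted p = 1.09e-09 by Fisher's exact test), the smallest p of the 18 pairs. A second gene with the bmpr1bb name, 118 kb away on chromosome 10 with a transcript of 246 bases, had 4 reads in each library, and reads that map to more than 1 place were not counted.

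tgfbr1b (ENSDARG00000042259, chromosome 24, 450049 to 480816), a type I receptor for TGF-β, was the only type I receptor called higher. It had 118 reads in the GFP+ and 34 in the GFP- library (log2 ratio 1.67, interval 1.12 to 2.28), and reads covered 91.9% of its transcript in GFP+ cells and 49.8% in GFP- cells. The other TGFBR1 gene (ENSDARG00000017494) had 37 reads in the GFP+ and 33 in the GFP- library (log2 ratio 0.05, interval -0.67 to 0.77). The 2 copies differed by 1.62 on the log2 scale (interval 0.69 to 2.56, adjusted p = 0.00167 by Fisher's exact test). Among the members, both TGF-β1 ligand genes and the TGF-β receptor genes tgfbr1b and tgfbr2b were thus past 2-fold higher in GFP+ cells in these libraries. So was a TGFBR2 gene that the wording missed, given below. A TGFBR3 gene model (ENSDARG00000078670, log2 ratio 2.08), counted as a co-receptor and given below, was past 2-fold higher too. The second TGFBR3 model (-0.20) and the other TGF-β ligand and receptor members with enough reads were not. The other TGFBR1 gene (log2 ratio 0.05), tgfbr2l (0.51) and the ligand gene tgfb2 (-0.89) stayed within 2-fold, and tgfb3 (-1.64) was lower. Together the TGF-β ligands had 615 reads (138 RPM) in the GFP+ and 905 reads (220 RPM) in the GFP- library.

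The other type I receptors stayed within 2-fold. bmpr1aa, the type I BMP receptor with most reads in GFP+ cells, had 327 reads in the GFP+ and 452 in the GFP- library (log2 ratio -0.58, interval -0.79 to -0.37). acvr1l, which encodes the ventralizing receptor Alk8, had 124 reads in the GFP+ and 157 in the GFP- library (log2 ratio -0.45, interval -0.81 to -0.10). Reads covered only 14.0% of its most-read transcript in GFP+ cells and 16.4% in GFP- cells. An ACVR1B gene (ENSDARG00000018968), for an activin and Nodal receptor, had 265 reads in the GFP+ and 326 in the GFP- library (log2 ratio -0.41, interval -0.65 to -0.17). These 3 receptors had more reads in GFP- cells by less than 2-fold. acvr1bb went the other way, with 48 reads in the GFP+ and 29 in the GFP- library (log2 ratio 0.60, interval -0.08 to 1.33), and differed from the other ACVR1B gene by 1.02 (interval 0.29 to 1.78, adjusted p = 0.0112 by Fisher's exact test). ACVR1C had 0 reads in the GFP+ and 1 in the GFP- library.

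**Figure D3:**
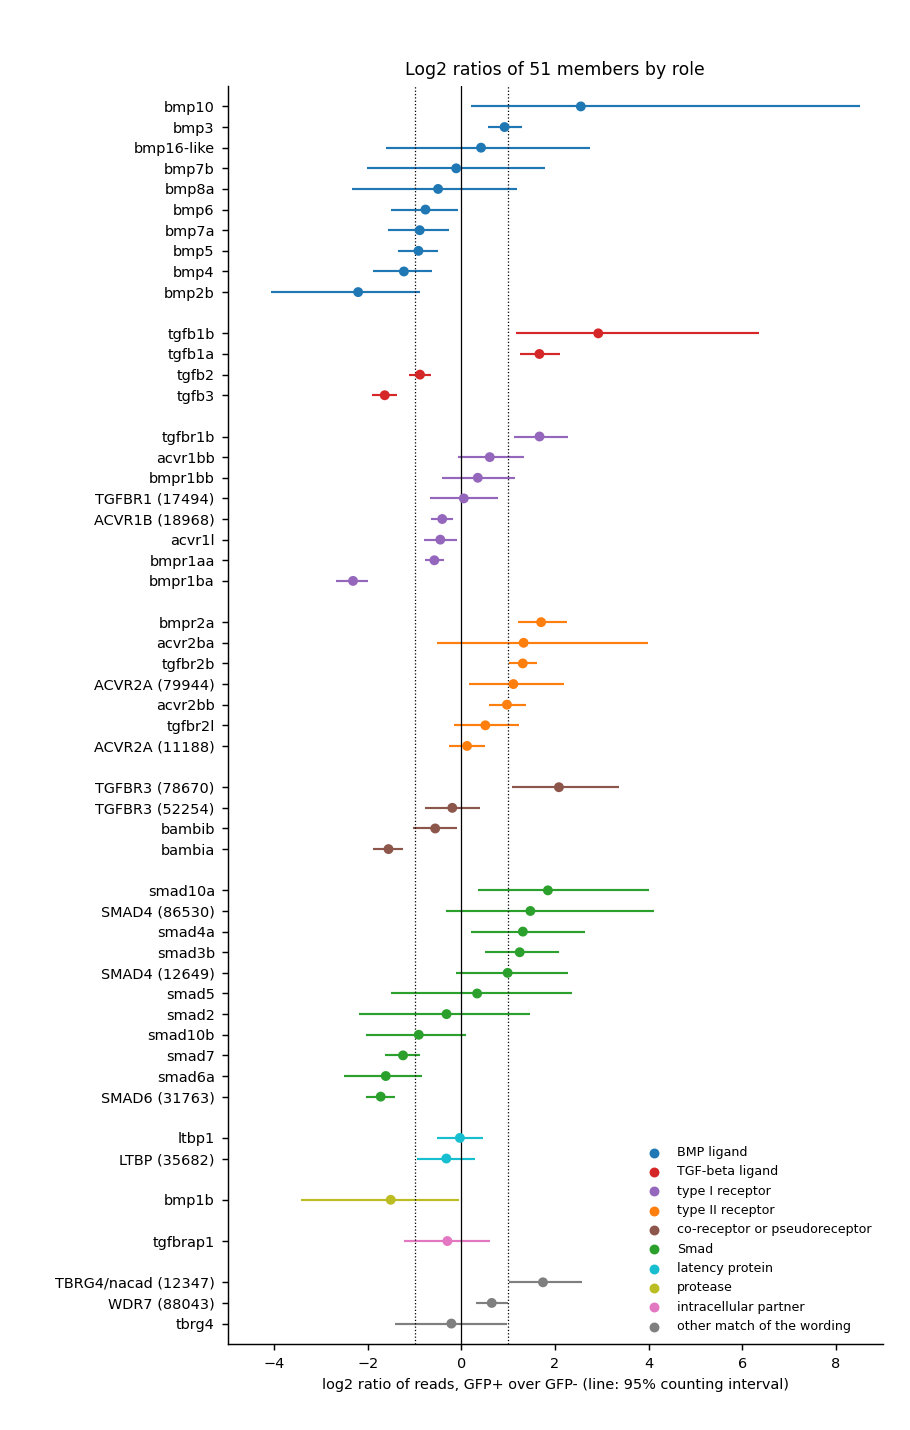
Log2 ratio of reads in GFP+ cells over GFP- cells for 51 members with at least 10 reads, grouped and coloured by role, with 95% exact counting intervals as lines and dotted lines at 2-fold. Type II receptors lie between 0.12 and 1.70, and bmpr1ba at -2.32 is the lowest.

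The co-receptors and pseudoreceptors also differed among themselves. bambia (ENSDARG00000055381, chromosome 12, 24846549 to 24852797) encodes a BAMBI pseudoreceptor, which lacks the kinase domain. It had 116 reads in the GFP+ and 317 in the GFP- library (log2 ratio -1.56, interval -1.88 to -1.25), or 16.6 RPKM in the GFP+ and 49.2 RPKM in the GFP- library. Its copy bambib had 68 reads in the GFP+ and 93 in the GFP- library (log2 ratio -0.56, interval -1.04 to -0.10). Both copies were below 0, bambia by more. The copies differed by 1.00 on the log2 scale (interval 0.42 to 1.57, adjusted p = 0.00203 by Fisher's exact test).

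TGFBR3, or betaglycan, presents TGF-β to the signaling receptors, and 2 gene models carried this name. ENSDARG00000078670 had 43 reads in the GFP+ and 9 in the GFP- library (log2 ratio 2.08, interval 1.09 to 3.37). ENSDARG00000052254 had 50 reads in the GFP+ and 53 in the GFP- library (log2 ratio -0.20, interval -0.78 to 0.39), and its sign turned with the scaling. They differed by 2.28 on the log2 scale (interval 1.09 to 3.69, adjusted p = 4.58e-04 by Fisher's exact test). The 2 models lie 63.1 kb apart on the same strand of chromosome 6. Whether they are separate genes or pieces of 1 gene was not tested.

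Of the 11 Smads with enough reads, 4 were past 2-fold higher (36.4%, against 16.2% of all genes) and 3 past 2-fold lower (27.3%, against 17.6%) in GFP+ cells. The 3 lower ones were the inhibitory Smads, and all of them also passed the Fisher's exact test. Over all genes, 1651 of the 2686 lower and 1524 of the 2469 higher genes passed this test. Of the 4 higher Smads, 0 passed it. With 5 reads added instead of 0.5, 2 of the 4 stayed past 2-fold, and smad4a (log2 ratio 0.99) and the SMAD4 gene ENSDARG00000086530 (0.79) did not. A SMAD6 gene (ENSDARG00000031763, chromosome 18, 19428986 to 19479772) had 119 reads in the GFP+ and 365 in the GFP- library (log2 ratio -1.73, interval -2.04 to -1.43). smad6a (chromosome 7, 35526334 to 35534911) had 18 reads in the GFP+ and 52 in the GFP- library (log2 ratio -1.62, interval -2.50 to -0.85). These 2 genes, whose products block BMP signals most, differed by 0.11 on the log2 scale (interval -0.83 to 0.95, adjusted p = 0.934 by Fisher's exact test), an interval wide enough for a difference of nearly 2-fold either way. smad7 (ENSDARG00000016858), which blocks both branches, had 88 reads in the GFP+ and 194 in the GFP- library (log2 ratio -1.25, interval -1.63 to -0.88). With the BAMBI genes, these inhibitors had 409 reads in the GFP+ and 1021 in the GFP- library (92.1 RPM in the GFP+ and 249 RPM in the GFP- library), with a median log2 ratio of -1.56, and 4 of the 5 were called lower, against 17.6% of all genes. Scaling to β-actin reads left 3 of the 5, with smad7 at a log2 ratio of -0.90. This set of inhibitors is not a role of its own. It joins Smads with pseudoreceptors and was put together with earlier results of these data known.

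smad3b (ENSDARG00000010207, chromosome 18, 19553585 to 19586920), a receptor-regulated Smad of the TGF-β branch, had 52 reads in the GFP+ and 20 in the GFP- library (log2 ratio 1.24, interval 0.50 to 2.09). smad2, of the same branch, had 6 reads in the GFP+ and 7 in the GFP- library, and smad5, of the BMP branch, had 7 reads in the GFP+ and 5 in the GFP- library. No difference was detectable at these depths for smad2 or smad5. smad3b begins 73.8 kb after the SMAD6 gene on the same strand, and the intervals of these neighbors did not overlap. smad3a, which the wording missed, likewise lies 32.4 kb from smad6a on the same strand of chromosome 7, and had 134 reads in the GFP+ and 28 in the GFP- library (log2 ratio 2.13, interval 1.55 to 2.79). At both sites the smad3 gene was over 2-fold higher and the smad6 gene over 2-fold lower in GFP+ cells. These 2 sites were singled out from the neighboring pairs after their values were seen. smad3b did not pass the Fisher's exact test at an adjusted p under 0.001 (adjusted p = 0.00159).

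Smad4 is the common partner of the receptor-regulated Smads. smad4a had 25 reads in the GFP+ and 9 in the GFP- library (log2 ratio 1.31, interval 0.21 to 2.64). The SMAD4 gene ENSDARG00000012649 had 22 reads in the GFP+ and 10 in the GFP- library (log2 ratio 0.99, interval -0.11 to 2.27), and ENSDARG00000086530, 195 kb from it on chromosome 5, had 10 reads in the GFP+ and 3 in the GFP- library (log2 ratio 1.47, interval -0.33 to 4.12). All had more reads in GFP+ cells, but the interval of only smad4a was clear of 0, and reads of near-identical copies are uncertain because multiply mapping reads were not counted. ENSDARG00000023527, the remaining SMAD4 gene, had 0 reads in the GFP+ and 1 in the GFP- library. smad10a had 17 reads in the GFP+ and 4 in the GFP- library (log2 ratio 1.85, interval 0.36 to 4.0), whereas smad10b had 13 reads in the GFP+ and 23 in the GFP- library (log2 ratio -0.91, interval -2.04 to 0.11). The 2 smad10 copies differed by 2.76 on the log2 scale (interval 0.88 to 5.17, adjusted p = 0.00631 by Fisher's exact test).

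**Figure D4:**
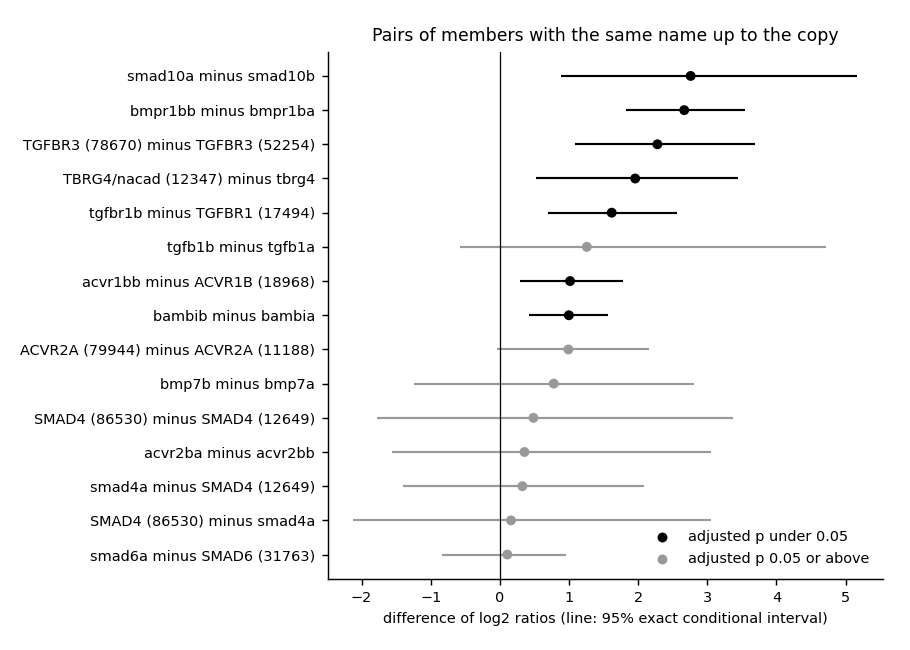
Difference of log2 ratios (GFP+ over GFP-) between 15 pairs of members with the same name up to the copy, with 95% exact conditional intervals. Black marks an adjusted p under 0.05 and grey the rest. The pair of bmpr1b genes differed by 2.67 and the pair of smad6 genes by 0.11.

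Of the 18 pairs compared, 16 between members and 2 between transcripts of 1 member, 8 had an adjusted p under 0.05. No share was computed over other pairs of genes. The 8 include the 2 TGFBR3 models, which may be pieces of 1 gene. They also include ENSDARG00000012347 against tbrg4 (difference 1.96, interval 0.53 to 3.44), and the identity of the former is uncertain, as given below. The pair tests compare reads within the same pair of libraries, do not depend on how the libraries are scaled, and do not replace replicates.

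The latency proteins were near equal, and the protease and the intracellular partners given here had under 50 reads over both libraries. ltbp1, a latent TGF-β binding protein that holds the ligand in the matrix, had 74 reads in the GFP+ and 70 in the GFP- library (log2 ratio -0.03), and a second gene of that family (ENSDARG00000035682) had 44 reads in the GFP+ and 51 in the GFP- library (log2 ratio -0.32). The signs of both turned with the scaling. bmp1b, a protease of the tolloid type and not a BMP ligand, had 5 reads in the GFP+ and 14 in the GFP- library (log2 ratio -1.51, interval -3.43 to -0.04). bmp1b was called lower. tgfbrap1, which encodes a protein associated with TGF-β receptors, had 21 reads in the GFP+ and 24 in the GFP- library. ENSDARG00000075905, another gene with a name of this kind, had 5 reads in the GFP+ and 0 in the GFP- library.

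Among the other matches of the wording, ENSDARG00000012347 was called higher, with 70 reads in the GFP+ and 19 in the GFP- library (log2 ratio 1.74, interval 1.02 to 2.58). Its deposited protein name is a TGF-β regulator, whereas the table of gene names calls it nacad, so its identity is uncertain. tbrg4 had 13 reads in the GFP+ and 14 in the GFP- library. ENSDARG00000088043, named WDR7 in the gene name table, had 195 reads in the GFP+ and 115 in the GFP- library (log2 ratio 0.65, interval 0.31 to 0.99). tgfa had 1 read in the GFP+ and 0 in the GFP- library. No direct role in BMP or TGF-β signal transduction is attached to these 4 genes here.

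A list of pathway genes was written from background knowledge, with earlier results of these data known. It added 63 genes that the wording missed, of which 47 had at least 10 reads. In this list 8 were past 2-fold higher (17%) and 20 were past 2-fold lower (42.6%) in GFP+ cells, against 16.2% and 17.6% of all genes, with a median log2 ratio of -0.69. Most of the lower genes were antagonists, other ligands of the superfamily or Id genes, but no share of these kinds over the list was computed. Others of these kinds stayed within 2-fold, such as fstl1b (log2 ratio -0.69), nog2 (-0.90), sost (-0.26), gdf6a (-0.04) and gdf11 (-0.64). The ligand gene amh was called higher (1.09, on 37 reads in all). These 6 genes were named after their values were seen. The Id genes, which encode inhibitors of bHLH factors and are classic BMP targets, included the gene with the most reads in this list, id1. It had 3312 reads in the GFP+ and 8051 in the GFP- library and was 2.63-fold lower in GFP+ cells. id3 had 870 reads in the GFP+ and 2305 in the GFP- library (log2 ratio -1.52, interval -1.63 to -1.41). id2a had 187 reads in the GFP+ and 541 in the GFP- library (log2 ratio -1.64, interval -1.89 to -1.40). Of the Id genes with enough reads, only id4 stayed within 2-fold, with 51 reads in the GFP+ and 49 in the GFP- library, and it was singled out after its values were seen.

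The Lefty genes lft1 and lft2, whose products antagonize Nodal, were both lower in GFP+ cells. lft1 had 2 reads in the GFP+ and 64 in the GFP- library (log2 ratio -4.80), and lft2 had 12 reads in the GFP+ and 65 in the GFP- library (log2 ratio -2.50). fsta, the gene of the activin binder follistatin, had 40 reads in the GFP+ and 171 in the GFP- library (log2 ratio -2.20), and fstl1a, a follistatin-like gene, had 273 reads in the GFP+ and 799 in the GFP- library (log2 ratio -1.66). hjv, the gene of the BMP co-receptor hemojuvelin, had 15 reads in the GFP+ and 154 in the GFP- library (log2 ratio -3.43, interval -4.35 to -2.71). All of these intervals lay below -1. The ligand genes inhbaa (14 reads in the GFP+ and 36 in the GFP- library), inhbb (85 in the GFP+ and 172 in the GFP- library) and GDF10 (14 in the GFP+ and 43 in the GFP- library) were also called lower, as was tgif1, a corepressor of Smads, with 809 reads in the GFP+ and 1584 in the GFP- library (log2 ratio -1.08). dand5, a Nodal antagonist singled out after its values were seen, had 0 reads in the GFP+ and 14 in the GFP- library. With the floor of 3 reads put in place of the 0, it was 5.05-fold lower in GFP+ cells. The upper end of its counting interval was a log2 ratio of -1.84.

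Of the higher genes, tll1, a tolloid-like protease that cleaves BMP antagonists, had 301 reads in the GFP+ and 13 in the GFP- library (log2 ratio 4.37, interval 3.62 to 5.35). A TGFBR2 gene that the wording missed (ENSDARG00000059363) had 80 reads in the GFP+ and 5 in the GFP- library (log2 ratio 3.76, interval 2.60 to 5.55), above the ratio of every type II receptor among the members. grem2b, a BMP antagonist of the gremlin family, had 223 reads in the GFP+ and 22 in the GFP- library (log2 ratio 3.20, interval 2.59 to 3.93). Unlike the lower antagonists above, grem2b was higher in GFP+ cells. trim33, a ubiquitin ligase that acts on Smad4, had 82 reads in the GFP+ and 18 in the GFP- library (log2 ratio 2.04). Reads covered only 6.77% of its most-read transcript in GFP+ cells and 6.37% in GFP- cells. smad3a, given above with its neighbor, was also among the higher genes. acvrl1, the type I receptor of endothelial cells for BMP10, had 12 reads in the GFP+ and 8 in the GFP- library (log2 ratio 0.44, interval -0.94 to 1.97), and smad1, of the BMP branch, had 13 reads in the GFP+ and 15 in the GFP- library (log2 ratio -0.31). Neither difference was detectable at this depth, and both genes were singled out after their values were seen.

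**Figure D5:**
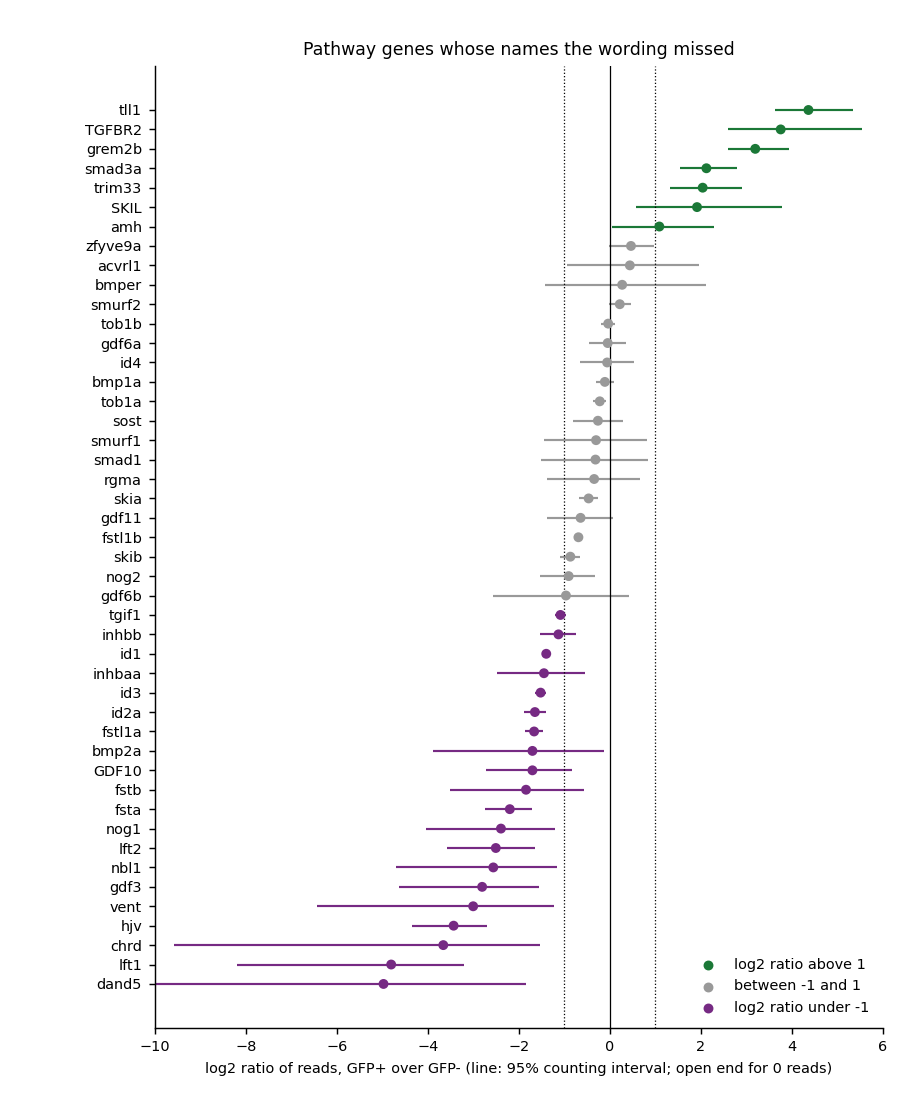
Log2 ratio of reads in GFP+ cells over GFP- cells for 46 pathway genes with at least 10 reads that the wording missed, with 95% exact counting intervals. Green marks genes past 2-fold higher (7), purple past 2-fold lower (20) and grey the rest; the interval of dand5, with 0 reads in GFP+ cells, is open to the left.

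The scaling bears on all of these values alike. Taking hemoglobin reads out of the totals shifted every log2 ratio by 0.10, and scaling to β-actin reads shifted it by 0.35. Each of the 4 scalings tried adds 1 constant to every ratio. All 4 took bmp3, acvr2bb and the SMAD4 gene ENSDARG00000012649 past 2-fold higher, β-actin ended the lower calls of bmp4 and smad7, and the signs of 7 members near equal turned under at least 1 of the 4. With a biological coefficient of variation assumed at 0.4, the exact test of edgeR (adjusted p under 0.05) called 0 members higher and 0 lower, against 2.24% and 0.616% of all genes.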

How the data were processed

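For GFP+ and GFP- cells of Tg(fli1a:EGFP)y1 embryos the authors deposited the count of uniquely mapped reads per Ensembl transcript of Zv9, coverage as a percent of each transcript's length, and RPKM; only transcripts with a read are listed. The aligner and counter are not given in the sources used here. The deposited RPKM equals the count scaled to transcript length and library total. The TruSeq kit is not stated to mark strand, so genes that overlap on opposite strands cannot be told apart, which touches bmp15 and bmpr1aa. bmp3 overlaps a gene on its own strand. A few genes covered by the rule for names, though counted in the totals, are not reported here or drawn. The labels give the stage as 22 to 24 hpf.

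Counts were summed per gene. Genes needed at least 10 reads over both libraries. Log2 ratios used 0.5 added reads and library totals, with 95% exact Clopper-Pearson intervals, which cover counting error only. Pairs were compared by two-sided Fisher's exact tests with Benjamini-Hochberg adjustment over 18 pairs. The intervals, and the 2-fold rule joined with the Fisher's exact test, were tried on simulated libraries that held counting error only. That trial did not cover the 2-fold rule alone or variation between replicates. Symbols came from protein names, RefSeq accessions (GRCz12tu, names only) and a table of gene names. Where these lack a copy letter, the gene ID is given.

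Named were, in each role, the member with most reads, the 3 largest and 3 smallest log2 ratios, every member past 2-fold with at least 50 reads, every receptor and Smad, pathway genes outside the wording past 2-fold with at least 50 reads, and the markers. Members with fewer reads are given by reads. Members and lists were chosen with earlier results of these data known. The alternatives were other scalings, minimums of reads, 5 added reads, the most-read transcript, core members only, and 2 call rules with a test. Software was edgeR 4.0.16 and DESeq2 1.42.0 in R 4.3.3, and SciPy 1.17.1, NumPy 2.4.6, pandas 2.3.3 and matplotlib 3.10.9 in Python 3.11.15.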

Additional observations from a re-analysis of the deposited data

How the results depend on the processing

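Of the 53 members, 14 were higher and 10 lower in GFP+ cells. A minimum of 50 reads left 34 members, 7 of them higher and 8 lower. Requiring the Fisher's exact test left 7 of the 53 higher and 8 lower, against 9.99% and 10.8% of all genes. With assumed variation, edgeR's exact test left 0 higher and 0 lower, against 2.24% and 0.616% of all genes. Under the other alternatives 10 to 17 were higher and 8 to 13 lower. These counts are of 53 members, except for no minimum of reads (62) and core members only (44). Apart from the 4 scalings, no share of all genes was computed for these alternatives or for the minimum of 50 reads. Over all alternatives the median log2 ratio lay between -0.26 and 0.24. TMM scaling shifted every log2 ratio by 0.10, median-of-ratios size factors by 0.11, totals without hemoglobin by 0.10 and β-actin by 0.35. With β-actin 23.4% of all genes were higher and 11.3% lower, so that higher genes were 67.5% of the calls, against 47.9% with library totals, and among members 68.0% against 58.3%. For 10 members the ratio scaled to β-actin reads lay outside the counting interval of the main ratio. The β-actin scaling ended the lower calls of bmp4 (-0.88) and smad7 (-0.90). All 4 scalings added bmp3, acvr2bb and a SMAD4 gene to the higher members, and 5 added reads ended 4 higher calls. No paired analysis was possible because there was 1 library of each kind, and no replicate could be left out. Low depth limits members under 50 reads most.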
